A study of Mus musculus with 3 samples.

Results

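The interferon-responding cells of 2 single-cell libraries of mouse P14 CD8 T cells are described here, 1 library from blood (PBMC) and 1 of memory cells. They were chosen by their own transcripts: a kept cell was a member when at least 3 of the 6 genes Ifit1, Ifit3, Ifit3b, Rsad2, Usp18 and Mx1 had at least 1 UMI, a UMI being 1 counted RNA molecule. Kept cells had at least 500 detected genes and at most 10% of their counts from mitochondrial genes. The rule found 205 members among 5652 kept PBMC cells and 148 among 7003 kept memory cells, 353 of 12655 in both, and the whole series of 3 libraries had 18920 kept cells. The values of those 6 genes chose the members, so they are given below as a description only.

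P14 cells carry a transgenic T cell receptor for the GP33-41 peptide of LCMV (lymphocytic choriomeningitis virus), presented by H-2Db. PBMC cells, sorted as CD8 T cells with CD45.1 and CD44, were taken on day 16 after naive P14 cells of TCF-1-GFP reporter mice had been given to C57BL/6 mice with B16.Gp tumours, on day 8 of tumour growth. B16.Gp is B16.F10 melanoma made to express the LCMV glycoprotein. Memory cells, taken on day 200 after acute LCMV infection, were sorted as CD8 T cells with CD45.1, CD44 and CD127, among other markers, and without KLRG1, so Klrg1 and Il7r (CD127) are set in part by that gate. Both groups are labelled genotype WT and strain C57BL/6. The tissue of the memory cells, whether they carried the reporter, and the number, sex and age of the mice are not stated. The remaining library, from the tumour-draining lymph node (TdLN), was used for context. The 3 libraries include none of tumour-infiltrating cells, so such cells were not analysed here.

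Type I interferons bind a receptor shared by nearly all cells, and the kinases JAK1 and TYK2 then activate a factor complex that includes STAT2 and IRF9 and binds promoter elements called ISREs. Interferon gamma uses another receptor and another factor complex, which binds GAS elements. The induced genes include RNA-binding IFIT proteins, viperin (Rsad2), the GTPase MX1, the ubiquitin-like ISG15 and USP18, which removes ISG15 from proteins and dampens the receptor. In T cells the same programme also raises surface proteins such as Ly6a (Sca-1) and Bst2 (tetherin).

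The promoters of 5 genes with a match are printed to show the element, next to some genes that carried the pattern and next to 1 interferon gene that hardly differed. Windows run from 250 bases before to 50 bases after the RefSeq start site (GRCm38.p6), 5′ to 3′ on the gene's strand, and capitals mark matches to the ISRE core GAAANNGAAA on either strand, so that TTTCNNTTTC is the same element read from the other strand.
Ifit1 chr19:34640639-34640938 (+ strand): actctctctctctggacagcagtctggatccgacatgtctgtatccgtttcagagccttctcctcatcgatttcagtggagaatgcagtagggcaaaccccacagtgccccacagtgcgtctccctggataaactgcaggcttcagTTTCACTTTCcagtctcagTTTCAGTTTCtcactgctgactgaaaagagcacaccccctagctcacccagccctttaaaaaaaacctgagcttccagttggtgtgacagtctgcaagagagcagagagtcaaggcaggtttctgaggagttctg
Rsad2 chr12:26456403-26456702 (- strand): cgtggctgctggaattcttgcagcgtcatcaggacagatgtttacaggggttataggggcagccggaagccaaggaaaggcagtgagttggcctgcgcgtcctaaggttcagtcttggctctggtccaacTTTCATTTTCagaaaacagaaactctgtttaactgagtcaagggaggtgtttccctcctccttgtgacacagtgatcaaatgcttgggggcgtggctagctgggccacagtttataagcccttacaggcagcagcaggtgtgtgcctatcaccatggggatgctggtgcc
Isg15 chr4:156200769-156201068 (- strand): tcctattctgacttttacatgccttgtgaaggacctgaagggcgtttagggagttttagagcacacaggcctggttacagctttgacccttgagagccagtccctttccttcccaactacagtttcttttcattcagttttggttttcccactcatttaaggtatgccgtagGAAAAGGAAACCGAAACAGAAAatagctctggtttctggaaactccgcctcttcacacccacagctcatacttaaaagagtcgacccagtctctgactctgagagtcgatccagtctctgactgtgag
Slfn5 chr11:82951852-82952151 (+ strand): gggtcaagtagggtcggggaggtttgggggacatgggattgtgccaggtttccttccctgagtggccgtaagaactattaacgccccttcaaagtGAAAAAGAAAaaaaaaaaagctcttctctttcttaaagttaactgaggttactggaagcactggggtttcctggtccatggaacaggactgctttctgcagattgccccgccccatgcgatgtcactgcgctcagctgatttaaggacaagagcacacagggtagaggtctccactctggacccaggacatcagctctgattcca
B2m chr2:122147437-122147736 (+ strand): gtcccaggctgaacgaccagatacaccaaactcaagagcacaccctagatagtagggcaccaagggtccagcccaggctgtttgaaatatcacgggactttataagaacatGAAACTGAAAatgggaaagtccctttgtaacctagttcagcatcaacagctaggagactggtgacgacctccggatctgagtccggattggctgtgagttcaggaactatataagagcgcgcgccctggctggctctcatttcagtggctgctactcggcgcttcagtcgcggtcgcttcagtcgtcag
Matches began 104 and 85 bases before the start site of Ifit1, 120 before that of Rsad2 and 155 before that of Slfn5. Isg15, on the reverse strand of chromosome 4, had 3 overlapping matches from 78 bases before its start site. B2m, the light chain of MHC class I, had 1 match, 139 bases before. Isg20 and Irf7, also higher in members of both libraries and not printed, had no match in their windows.

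The PBMC library held 3.63% members (95% interval 3.15 to 4.15) and the memory library 2.11% (1.79 to 2.48), against 10.7% in the TdLN library under the same rule. With 1 library per group there is no measure of variation between mice, so no test is given, and the source tissue, the day, the gate and the library preparation cannot be told apart. All intervals cover counting error only: exact Clopper-Pearson for shares, exact Poisson for levels and exact conditional binomial for ratios, each at 95%. PBMC members had a median of 12209 UMIs, against 6909 in other PBMC cells, while memory members had 10513 UMIs, against 9949 in other memory cells. A deeper cell shows more genes, and the share of members in PBMC was 0.637%, 1.91%, 4.46% and 7.502% from the lowest to the highest of 4 equal groups by UMIs. In memory those shares were 1.20%, 2.11%, 2.05% and 3.08%. With every cell thinned to 4200 UMIs, after leaving out 504 PBMC and 276 memory cells below that depth, the shares were 1.79% (1.44 to 2.19) in PBMC and 0.743% (0.552 to 0.979) in memory. PBMC therefore held the larger share at full and at equal depth.

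Members carried CD8 T cell transcripts, as nearly all other cells did. All 205 PBMC and all 148 memory members had at least 3 of the 6 CD8 T cell genes Cd3e, Cd3d, Cd3g, Cd8a, Cd8b1 and Trac. So did 99.6% of other PBMC cells and 99.7% of other memory cells. No member of either library had a UMI of the 8 neutrophil genes searched. Of the B cell genes, Cd79a and Ms4a1 had none in members, while Cd79b was at 19.5 CPM in PBMC members and 11.6 in other PBMC cells, and Ighm had a UMI in 137 of the 205 PBMC members. Median mitochondrial shares were 4.32% in PBMC members and 4.38% in other PBMC cells, and 4.78% in memory members and 4.84% in other memory cells. The libraries shared 10 kept barcodes, none of them a member in both. Of the members, 14 in PBMC (6.83%) and 21 in memory (14.2%) were among the 5% of cells with most UMIs of their library.

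The label holds better for blood than for memory at the edge of the rule. Cells with exactly 3 rule genes numbered 98 in PBMC and 92 in memory, cells with 2 numbered 407 and 606, and cells with 4 to 6 numbered 107 and 56. A second reading came from 133 other interferon genes, those listed apart from the rule genes and MHC class I. Per 10000 UMIs, PBMC cells with 3 rule genes had a median of 146 such UMIs (quartiles 116 to 182), those with 2 had 112, those with 4 to 6 had 223 and the non-members 90.8. Memory cells with 3 rule genes had 91.8 (80.1 to 134), those with 2 had 85.4, those with 4 to 6 had 190 and the non-members 81.6. The median memory cell just inside the rule was therefore close to the non-members, although its upper quartile was not. Usp18, the rule gene most often seen in non-members, had a UMI in 13.8% of PBMC and 28.8% of memory non-members.

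**Figure D1:**
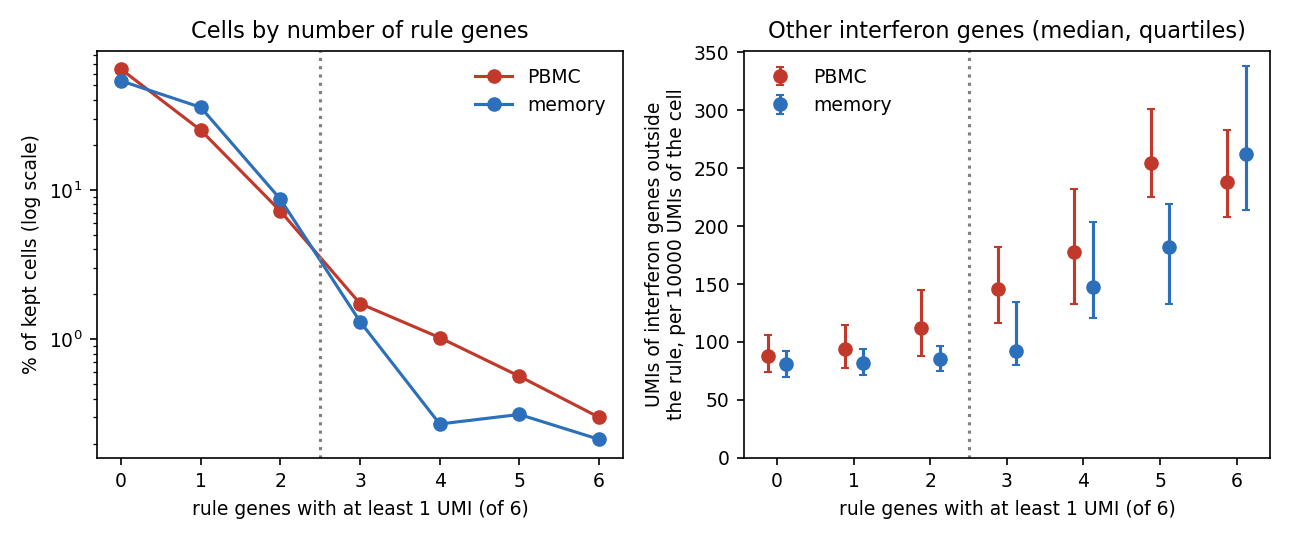
Kept cells by the number of the 6 rule genes with a UMI, PBMC in red and memory in blue; left, the percent of kept cells on a log scale; right, the median (points) and quartiles (bars) of UMIs of the other interferon genes per 10000 UMIs of the cell. The dotted line is the rule. At 3 genes the PBMC median is 146 and the memory median 91.8. At 4, 5 and 6 genes the medians are 178, 254 and 238 in PBMC, and 148, 182 and 263 in memory.

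The 6 rule genes themselves, as a description, ran as follows in CPM, a gene's UMIs as a share of all summed UMIs of a set of cells, scaled by 1000000. Ifit1 was at 307 CPM in PBMC members and 11.97 in other PBMC cells, and at 237 CPM in memory members and 6.33 in other memory cells. Rsad2 was at 66.1 and 1.97 CPM in PBMC members and other PBMC cells, and at 59.9 and 0.994 CPM in memory members and other memory cells. Ifit3, Ifit3b, Usp18 and Mx1 ranged from 50.5 to 298 CPM in members of both libraries and from 2.57 to 37.0 CPM in other cells. Each gene was also read in cells that had at least 3 of the other 5, which its own UMIs did not choose. Read that way the ratios to the remaining cells were 26.1 and 38.9 for Ifit1, 28.2 and 41.1 for Rsad2, 17.5 and 25.5 for Ifit3, 15.3 and 16.0 for Ifit3b, 8.04 and 5.74 for Usp18, and 7.80 and 8.24 for Mx1, PBMC before memory. Usp18 was the only one of these 6 with the smaller ratio in memory, where the remaining cells stood at 38.1 CPM, against 21.6 CPM in PBMC. Ifit3 and Ifit3b are near-identical neighbours, and how reads shared by copies were counted is not given in the sources used here, which also bears on the Ifi200, Slfn, Gbp and Tgtp families.

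Outside the rule, the interferon genes made up nearly all of what was higher in members. Genes that reached 50 CPM in members or in other cells were compared. In PBMC 57 of 2003 (2.85%) stood at least 2-fold higher in members, and in memory 43 of 1951 (2.2%). Of these, 50 and 41 were rule genes or on the interferon lists. Of 153 listed interferon genes outside the rule, 86 reached 50 CPM in PBMC and 44 of them (51.2%) were at least 2-fold higher in members, with a median log2 ratio of 1.03, against -0.11 over all genes. In memory it was 35 of 82 (42.7%), with a median log2 ratio of 0.77, against 0.00 over all genes. Ppa1 (a pyrophosphatase) and Jaml (a junctional adhesion molecule) were the 2 genes outside the lists that passed in both libraries, chosen after their values were seen. Jaml was at 128 CPM in PBMC members and 52.6 in other PBMC cells, and at 154 CPM in memory members and 76.4 in other memory cells.

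The 35 genes of memory were all among the 44 of PBMC, so 35 were at least 2-fold higher in both, 9 in PBMC only and 0 in memory only. Isg15 (ENSMUSG00000035692, mm10 chr4:156199424-156200818, reverse strand) had the highest ratio outside the rule in both libraries, at 309 CPM in PBMC members and 19.1 in other PBMC cells, and at 306 CPM in memory members and 19.4 in other memory cells. Its ratios of 16.2-fold (14.7 to 17.9) in PBMC and 15.8-fold (14.3 to 17.5) in memory could not be told apart at this depth. Over the 35 genes the ratios ran from 2.04- to 16.2-fold with a median of 2.83 in PBMC, and from 2.01- to 15.8-fold with a median of 2.56 in memory. In the TdLN library, where 2.65% of genes passed, 32 of the 35 passed in its members. Of the others Trim34a and Gbp4 were under 2-fold, and Tgtp2 was under 50 CPM, at 39.8 CPM in TdLN members and 17.3 in other TdLN cells.

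**Figure D2:**
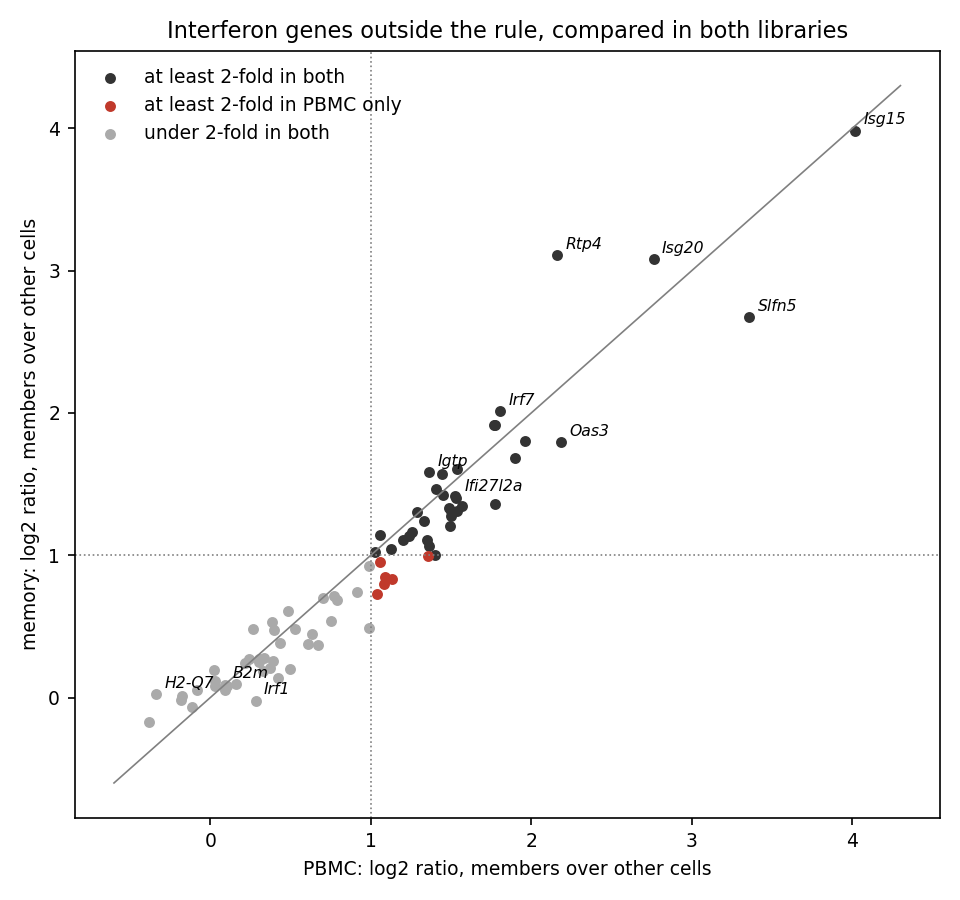
Log2 ratio of members over other cells for the 81 interferon genes outside the rule that reached 50 CPM in both libraries, PBMC on the x axis and memory on the y axis; dotted lines mark 2-fold and the diagonal equal ratios. Isg15 lies on the diagonal, Rtp4 above it, Slfn5 and Oas3 below it, and B2m and Irf1 near 0.

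Of 7 interferon transcription factors compared, 2 were at least 2-fold higher in members of each library. Irf7, 1 of them, which amplifies interferon production, was at 186 CPM in PBMC members and 53.1 in other PBMC cells, and at 113 CPM in memory members and 28.0 in other memory cells. Stat2 was under 50 CPM, with ratios of 3.94 and 2.49, and Irf9 had ratios of 1.88 in PBMC and 1.93 in memory. Irf1, the factor most tied to interferon gamma, had ratios of 1.22 (1.06 to 1.39) and 0.99 (0.83 to 1.16).

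Of the genes listed as other interferon-induced effectors, 16 of 33 compared in PBMC and 16 of 31 in memory were at least 2-fold higher in members. Slfn5, a schlafen family protein, was at 81.4 CPM in PBMC members and 7.94 in other PBMC cells, and at 89.2 CPM in memory members and 14.003 in other memory cells. The exonuclease gene Isg20 had ratios of 6.78 in PBMC and 8.46 in memory. Oas3, which makes the 2-5A signal that activates RNase L, had ratios of 4.56 and 3.46. Of the nucleic acid sensors compared, 9 of 10 in PBMC and 7 of 10 in memory were at least 2-fold higher, among them Zbp1, a sensor of Z-form nucleic acid, with 3.43- and 3.78-fold. The interferon-inducible GTPases, which act on vacuoles of intracellular pathogens, gave 8 of 10 in PBMC and 5 of 8 in memory, among them Igtp with 2.58- and 2.995-fold.

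Ifi27l2a, a small mitochondrial interferon protein, showed that a like ratio can sit on unlike levels. It was at 2214 CPM in PBMC members and 766 in other PBMC cells, and at 294 CPM in memory members and 111 in other memory cells, so other PBMC cells were above memory members. The ratios were 2.89-fold (2.81 to 2.97) in PBMC and 2.65-fold (2.41 to 2.90) in memory. Of the 35 shared genes, 29 had the higher level in PBMC members than in memory members, and 25 had the higher level in the other PBMC cells than in the other memory cells.

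**Figure D3:**
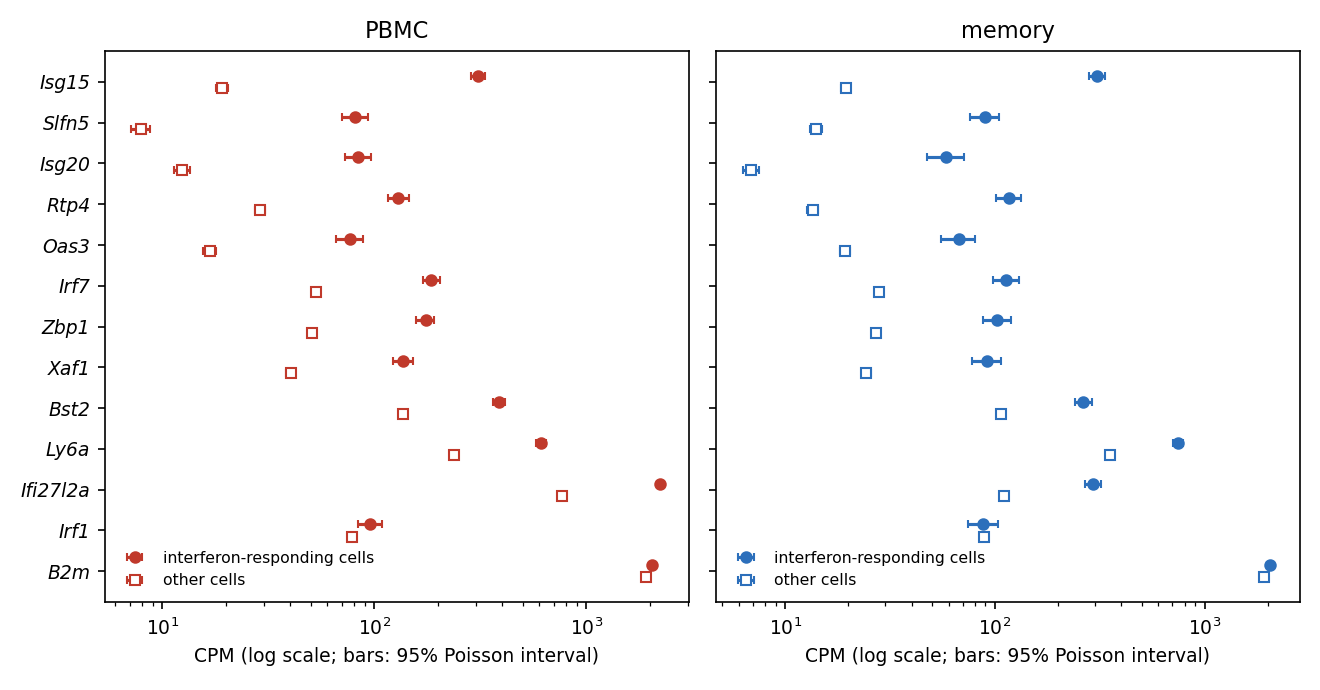
Level of 13 interferon genes outside the rule in CPM (log scale), PBMC left and memory right; filled circles are members, open squares the other cells, bars 95% Poisson intervals. Members lie right of the other cells for the genes from Isg15 to Ifi27l2a in both libraries, and Irf1 and B2m lie close together.

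MHC class I antigen presentation genes were under 2-fold. None of the 19 genes compared was at least 2-fold higher in members of either library, with median log2 ratios of 0.16 in PBMC and 0.11 in memory. B2m was at 2042 CPM in PBMC members and 1920 in other PBMC cells, and at 2048 CPM in memory members and 1923 in other memory cells. The interval lay above 1 for 10 of the 19 in PBMC and 11 in memory, and below 1 for 4 and 1. The highest ratios included those of the nonclassical heavy chain H2-T22, at 1.68 and 1.45, and of the peptide loading factor Tapbp, at 1.52 and 1.30. The heavy chain H2-K1 had ratios of 0.94 and 1.04, and the nonclassical H2-Q7 of 0.79 and 1.02. Of 11 genes on the list led by interferon gamma, only 2 in PBMC and 3 in memory reached 50 CPM, and none of these was 2-fold higher. The interferon-inducible GTPases given above were listed apart. Socs1, a feedback inhibitor of JAK kinases, came nearest with 1.73 and 1.61.

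No cell of either set of members held a UMI of a type I or type III interferon gene: 11 of the 12 ligand genes searched were at 0. The same 11 were at 0 in the other cells of both libraries, so this was not particular to members. The limit taken for a count of 0, 3 counts over all members, is 1.27 CPM in PBMC members and 1.76 CPM in memory members. Ifng, the remaining ligand, was at 14.4 CPM in PBMC members and 30.5 in other PBMC cells, and at 25.2 CPM in memory members and 25.3 in other memory cells. Weighted to the UMI deciles of the PBMC members, other PBMC cells had 14.3 CPM of Ifng. Receptor and kinase genes were not higher: Ifnar1 had ratios of 0.90 (0.69 to 1.14) and 1.18 (0.94 to 1.47), Ifnar2 of 0.999 and 0.969, Jak1 of 0.77 and 0.88, and Ifngr1 of 0.79 and 0.88. Cxcl10, an interferon-induced chemokine, was rare, with 44 UMIs in PBMC members (18.7 CPM, against 1.44 in other PBMC cells) and 11 in memory members (6.46 CPM, against 0.453 in other memory cells).

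The 9 genes past 2-fold in PBMC only were Ifit1bl1, Oas1a, Mndal, Ifi203, Dtx3l, Trim12c, Gbp2, Gbp9 and Iigp1. The difference itself was read from the PBMC ratio divided by the memory ratio, and its interval left out 1 for 3 of the 9. Mndal, of the Ifi200 family, was at 418 CPM in PBMC members and 204 in other PBMC cells (2.05-fold), and at 287 CPM in memory members and 174 in other memory cells (1.65-fold), a quotient of 1.24 (1.11 to 1.39). Ifi203 had ratios of 2.13 and 1.80 (quotient 1.18, 1.08 to 1.30) and Ifit1bl1 of 2.56 and 1.996 (1.28, 1.004 to 1.64, with the lower bound just above 1). Mndal and Ifi203 overlap on the reverse strand of chromosome 1, so their reads may not be separable. Oas1a, Gbp9 and Iigp1 stayed under 50 CPM in memory, where their ratios were 3.601, 2.53 and 5.10, so the level and not the ratio kept them out.

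Among the 35 genes past 2-fold in both libraries, the quotient left out 1 for 9. Rtp4, a receptor-transporting protein, was the 1 with the larger ratio in memory. It was at 130 CPM in PBMC members and 29.0 in other PBMC cells (4.48-fold), and at 116 CPM in memory members and 13.5 in other memory cells (8.62-fold), a quotient of 0.52 (0.42 to 0.64). The other 8, among them Oas3, Trim30a, Bst2, Phf11b, Slfn5, Slfn8 and Ly6a, had the larger ratio in PBMC. For Slfn5 the quotient was 1.61 (1.25 to 2.07), and the levels in members, 81.4 CPM in PBMC and 89.2 CPM in memory, were close.

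These differences between the libraries depended on where the rule was set, and so did the size of the shared set. With at least 2 of the 6 genes required, 11 interferon genes outside the rule passed in PBMC and 1 in memory. Under a stricter rule the shared set did not shrink. With at least 4 of the 6 genes required, 58 interferon genes outside the rule passed in PBMC and 61 in memory, 53 of them in both, 5 in PBMC only and 8 in memory only. Of the 53, the quotient then left out 1 for 22, and all 22 had the larger ratio in memory. Under that rule the quotient of Slfn5 no longer left out 1, with 15.9-fold in PBMC and 12.5-fold in memory (1.27, 0.96 to 1.68), while Rtp4 kept its side with 4.39- and 14.3-fold. None of the 5 then past 2-fold in PBMC only had an interval that left out 1, and 4 of the 8 in memory only did: Tgtp1, Ifi47, 9930111J21Rik2 and Socs1. Cells with 4, 5 and 6 rule genes numbered 58, 32 and 17 in PBMC, and 19, 22 and 15 in memory. Their median UMIs of the other interferon genes per 10000 were 178, 254 and 238 in PBMC, and 148, 182 and 263 in memory. The 2 sets thus differed in make-up, and whether that gave the larger memory ratios was not tested.

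The levels were also read by the number of rule genes a cell showed. Isg15 was at 120 CPM in PBMC and 119 CPM in memory cells with 3 rule genes, and at 482 CPM in PBMC and 645 CPM in memory cells with 4 to 6. Igtp was at 92.8 CPM in PBMC and 66.5 CPM in memory cells with 3 rule genes, and at 230 CPM in PBMC and 266 CPM in memory cells with 4 to 6. For Isg15 and Igtp the memory cells were thus at or below those of blood with 3 rule genes and above them with 4 to 6. B2m ran from 1917 CPM in PBMC cells with 0 or 1 rule gene to 2085 CPM in PBMC cells with 4 to 6, and from 1920 to 2164 CPM in memory.

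**Figure D4:**
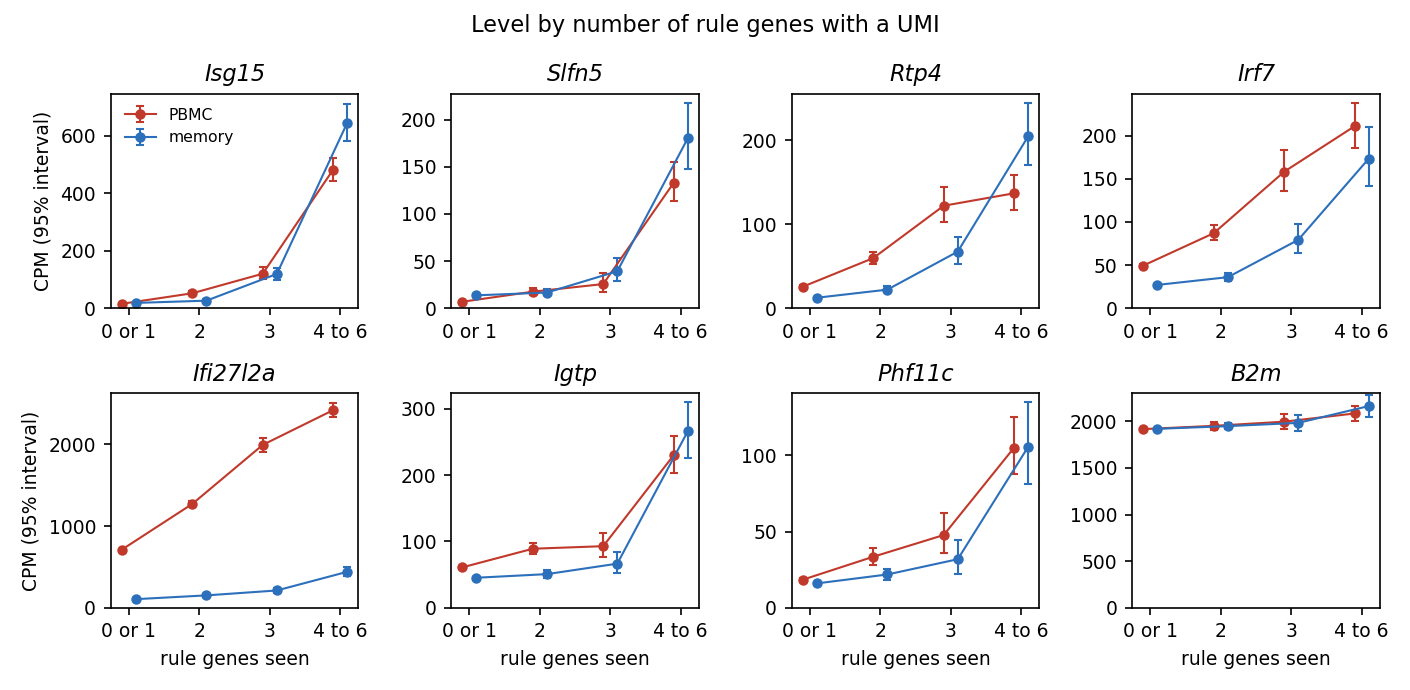
Level in CPM of 8 interferon genes outside the rule by number of rule genes with a UMI (0 or 1, 2, 3, 4 to 6), PBMC in red and memory in blue, bars 95% Poisson intervals. Isg15 reaches 482 CPM in PBMC and 645 CPM in memory in the last group, Ifi27l2a stays lower in memory in every group, and B2m is nearly flat.

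PBMC members were lower in effector genes than all other PBMC cells, and less so when set against other cells of like depth. In PBMC 26 of 2003 genes (1.3%) were at least 2-fold lower in members, among them 9 of the 14 cytotoxic effector genes and 4 of the 5 natural killer receptors compared. Gzma, a granzyme, was at 357 CPM in PBMC members and 1341 in other PBMC cells. Klrg1, a marker of terminal effector cells, was at 17.4 CPM in PBMC members and 69.7 in other PBMC cells. Cx3cr1 and Zeb2, also effector markers, were 3.65- and 3.41-fold lower, and the chemokine Ccl5 2.36-fold lower. Of 9 genes of naive cells compared, 8 had an interval above 1 and none reached 2-fold, with Dapl1 at 1.61-fold and Ccr7 at 1.26-fold. Of 12 homing genes, 2 had an interval above 1 and 8 below it, among them Itga4 and Ccr2, at least 2-fold lower.

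When the other PBMC cells were weighted to the UMI deciles of the members, all 26 genes were still lower in members, by 1.17- to 2.31-fold, but 25 of the 26 by less than 2-fold. The median over the 26 was 1.34-fold lower in place of 2.41-fold. Gzma became 357 CPM in members and 514 in the weighted others. The 26th gene, Stmn1, was 21.2 CPM in members and 49.0 CPM in the weighted others. Dapl1 and Ccr7 had weighted ratios of 1.22 and 0.952. Interferon genes kept their ratios: Isg15 stayed 15.4-fold and Bst2 2.63-fold higher in members after the same weighting.

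**Figure D5:**
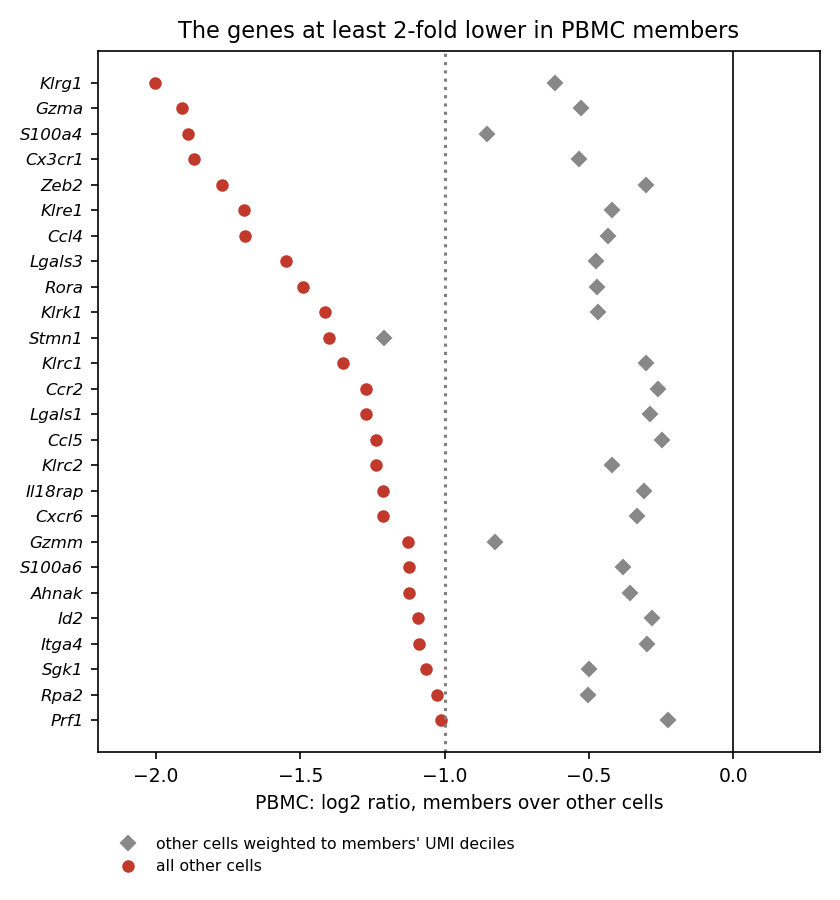
Log2 ratio of PBMC members over other PBMC cells for the 26 genes at least 2-fold lower in members, against all other cells (red circles) and against other cells weighted to the members' UMI deciles (grey diamonds); the dotted line is 2-fold lower. All but Stmn1 move inside 2-fold after weighting and all stay below 0.

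Blood members were found in effector-marked cells as well. PBMC cells with UMIs of at least 2 of the 5 genes Gzma, Zeb2, Cx3cr1, Klrg1 and S1pr5 held 42 members of 2591 (1.62%), those with Ccr7 and Igfbp4, both of naive-like cells, 53 of 917 (5.78%), and the remaining cells 110 of 2144 (5.13%). Median UMIs were 5208, 12933 and 10483.5. Cells were also thinned to 4200 UMIs and grouped again by the thinned counts. Some cells marked at full depth thus fell among the remaining cells. The shares were then 19 of 2036 (0.933%, 0.563 to 1.45), 7 of 411 (1.70%, 0.687 to 3.48) and 66 of 2701 (2.44%, 1.895 to 3.098). At equal depth the effector-marked cells thus lay below the remaining cells, and the interval of the Ccr7 and Igfbp4 cells overlapped both. Isg15 was higher in members within each: 17.3-fold in effector-marked cells, 8.68-fold in cells with Ccr7 and Igfbp4 and 20.3-fold in the rest.

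In memory few genes at or above 50 CPM were lower in members. Of 1951 genes, 3 (0.154%) were at least 2-fold lower in members, all immunoglobulin genes: Ighm, Igkc and Iglc3, which lie outside the naming rule. They were carried by few cells, since the 10 cells with most UMIs held 76.0% of Ighm, 97.5% of Igkc and 99.3% of Iglc3 UMIs of the kept cells. Ighm was at 36.4 CPM in memory members, against 26.6 in other memory cells without the 10 highest for the gene. Igkc was likewise at 2.35, against 3.51, and Iglc3 at 1.76, against 0.835. None of the 7 cytotoxic effector genes compared was 2-fold lower, with a median log2 ratio of -0.07. Gzma and Klrg1 were under 50 CPM in memory and rested on few UMIs in members. Gzma had 2 UMIs in memory members (1.17 CPM, against 7.88 in other memory cells), a ratio of 0.149 (0.0180 to 0.541), and Klrg1 had 4 (2.35 CPM, against 5.57), a ratio of 0.422 (0.114 to 1.09). Ccl5 was at 11948 CPM in memory members and 12508 in other memory cells, and Il7r, for whose protein the cells were sorted, at 685 and 753 CPM. Apart from immunoglobulin genes, the lowest named genes had ratios near 0.7, such as the integrin gene Itga4 (0.73, 0.63 to 0.84).

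Receptor segments, which the rule did not use, were compared next. P14 cells carry Trbv13-3, and 16 of 108 beta V UMIs (14.8%, 8.71 to 22.9) in PBMC members were of other segments, against 645 of 2006 (32.2%, 30.1 to 34.2) in other PBMC cells. Weighted to the members' UMI deciles the other PBMC cells had 21.8%, inside the members' interval. The members' own share was 24.6% of 57 UMIs with at least 4 of the 6 genes and 27.3% of 11 UMIs with cells thinned to 4200 UMIs. It was 34.2% of 38 UMIs without cells marked by another cell type's list and 6.32% of 95 UMIs without effector-marked cells. With so few UMIs, counting error is wide, and the other cells are not given under these settings. In memory it was 3 of 121 (2.48%, 0.514 to 7.07) in members and 244 of 5374 (4.54%, 3.999 to 5.13) in other cells. Reads at the 3′ end seldom reach a V segment, so these shares rest on 0.527 UMIs per PBMC member and 0.818 per memory member.

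Markers of other cell types moved with members in a few cases. The B cell list summed to 163 CPM in PBMC members and 103 in other PBMC cells, mostly from Ighm, and to 44.6 CPM in memory members and 262 in other memory cells, with 5 of its 8 genes at 0 in members of each library. The myeloid list summed to 68.3 CPM in PBMC members and 110 in other PBMC cells, and to 85.7 CPM in memory members and 96.0 in other memory cells. Its gene Cst3 gave most of both, and 10 and 11 of 16 genes were at 0 in members. The plasmacytoid dendritic cell list was higher in members through Bst2 alone, itself an interferon gene. The erythroid and platelet list summed to 24.2 CPM in PBMC members and 43.3 in other PBMC cells, and to 6.46 CPM in memory members and 1.97 in other memory cells. Cells holding 2 or more UMIs of the B cell, myeloid, neutrophil or erythroid and platelet list were then left out. The plasmacytoid dendritic cell list was not used for this. In what remained, 47 interferon genes outside the rule in PBMC and 45 in memory were at least 2-fold higher in members. Among them were 43 of the 44 and all 35 found with all cells.

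The ISRE core printed above was common in the promoters of the shared genes. It was found in a window of 1079 of 27025 genes with a promoter in the RefSeq table (3.99%). Of the 35 genes at least 2-fold higher in both libraries, 27 had a window and 17 of them (63.0%) a match, among them Isg15, Slfn5, Oas3, Bst2 and Igtp. Of the 43 interferon genes under 2-fold in both, 39 had a window and 8 (20.5%) a match, among them B2m and Socs1. The 4 rule genes with a window, Ifit1, Ifit3, Ifit3b and Rsad2, all had one. The GAS core TTCNNNGAA was found for 9.55% of all genes, for 5 of the 27 and for 5 of the 39. A match is a description of these letters and not evidence of binding.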

How the data were processed

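Droplet 3′ single-cell RNA was measured in sorted P14 CD8 T cells, 1 library per group. The deposited values are UMI counts per gene and cell, not normalized, which the authors made with Cell Ranger 3.1.0 on mm10, per the submitters' processing notes. Barcodes numbered 6165 for PBMC, 8321 for memory and 7503 for TdLN, with 49592338, 72283532 and 72062695 counts. After the cell filter, PBMC members held 2358518 UMIs and memory members 1703171. Counts were summed over members and over other cells of the same library and divided by the total (CPM). Coordinates came from GENCODE M21 (30934 of 31053 gene IDs). Intervals used scipy 1.17.1. No p-value is given, since cells are not replicates.

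Genes that reached 50 CPM in either set entered the comparison, and ratios past 2-fold in either direction were counted. Named genes are the 6 rule genes, in each library the 12 highest and 8 lowest ratios (without ribosomal, mitochondrial, predicted, receptor segment, immunoglobulin, haemoglobin, Xist and Y-linked genes), genes past 2-fold in 1 library whose quotient leaves out 1, up to 4 most abundant genes of each list, and the interferon pathway. Others were chosen after their values were seen. Members and lists were chosen with earlier results of these data known. Doublets were not called, and leaving out the 5% of cells with most UMIs was tried. In simulated counts for PBMC (1987 genes) and for memory (1921), 100 of 100 genes at 2.5-fold and 100 of 100 at 5-fold were recovered. In each, 0 unchanged genes were called. These counts were Poisson draws around the profile of the other cells. They held no variation between cells, no choice by rule genes and no depth difference per cell. The outcome therefore checks the arithmetic and gives no rate of false calls in the real data. Alternatives were the number of rule genes, the cell filter, thinning, weighting, scaling, the CPM minimum and leaving out cells with markers of other types. Leaving out effector-marked cells, the stricter-rule quotients and the levels by depth were added after seeing the data. Some named genes are not reported here.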

Additional observations from a re-analysis of the deposited data

Results flagged for a closer look

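Ighm, the heavy chain constant gene of IgM, had ratios on opposite sides of 1 in the 2 libraries. Its log2 ratio was 0.73 in PBMC, with 142 CPM in members and 86.1 CPM in other PBMC cells, and -1.65 in memory, with 36.4 CPM in members and 114 CPM in other memory cells. The difference between the libraries was not tested. In memory 1 cell held 3562 of the Ighm UMIs, and the 10 highest cells held 76.0% of them, against 1.84% in PBMC, where 2033 cells had a UMI. Ighm was seen in 137 of 205 PBMC members (66.8%) and 1896 of 5447 other PBMC cells (34.8%), and in 42 of 148 memory members (28.4%) and 1295 of 6855 other memory cells (18.9%). The 10 highest memory cells were not members, and without them the other memory cells had 26.6 CPM, below the 36.4 CPM of memory members, a setting chosen after seeing the data. The memory direction therefore rests on those 10 cells.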

How the results depend on the processing

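With at least 2 of the 6 genes, members were 10.8% of PBMC and 10.8% of memory cells, 14 and 4 genes were at least 2-fold higher, 14 lower in PBMC, and 11 and 1 interferon genes higher, 1 in both. With at least 4, members were 1.89% and 0.800%, 81 genes and 61 interferon genes were higher in memory, 53 interferon genes in both, and 24.6% of beta V UMIs in PBMC members were not Trbv13-3. With cells required to have 1000 genes and no more than 5% mitochondrial counts, memory had 28 genes and 23 interferon genes higher, 23 in both. Thinned to 4200 UMIs, members were 1.79% and 0.743%, 94 and 111 genes were higher, 33 lower in memory, 63 interferon genes higher in memory and 55 in both, and the PBMC beta V share was 27.3%, on 11 UMIs. Without the 5% of cells with most UMIs, 1 gene was lower in memory.

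Leaving out cells with 2 or more UMIs of the B cell, myeloid, neutrophil or erythroid and platelet list removed 2397 PBMC and 2036 memory cells. Many of these were left out through Ighm and Cst3 UMIs in T cells. This setting gave a PBMC member share of 2.40%, a PBMC beta V share of 34.2%, 0 genes lower in memory, and a log2 ratio of Ighm in memory of 0.53. Without effector-marked cells, PBMC had 5.33% members, a beta V share of 6.32%, 4 genes lower and a log2 ratio of Gzma of 0.25; the marker genes that defined the cells left out include Gzma. With other cells weighted to the members' UMI deciles, 0 genes were lower in PBMC at 50 CPM. At 20 CPM, 52 genes were lower in PBMC, and 69 genes, 55 interferon genes and 53 in both were higher in memory or both. At 100 CPM, PBMC had 30 higher, 15 lower and 24 interferon genes, memory 22 higher and 18 interferon genes, and 17 were in both. Totals without ribosomal protein and mitochondrial genes gave 91 genes higher in PBMC. The causes were not tested where no value is given. Of 2625 values of named genes under 13 alternatives, 1944 moved by less than their counting interval, 679 by more, and 2 that had been at least 2-fold reversed, the values of Ighm and Gzma given above. Counting also values under 2-fold, 173 changed sign, Ccr7 in PBMC among them (log2 ratio of 0.33, against -0.07 with weighted other cells).

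No paired analysis was possible because each group has 1 library. With 205 and 148 members, the limit for a gene with no UMI, taken as 3 counts over all members, is 1.27 CPM in PBMC members and 1.76 CPM in memory members. Variation between mice, tissue, day and sort gate cannot be told apart, and counts of cells near the rule depend on depth.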
